A study of Mus musculus with 4 samples.

Results

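The promoters described here are those with no ATAC-seq peak in any of 4 mouse small cell lung cancer (SCLC) lines. The promoter of a gene was its transcription start site (TSS) with 3 kb on each side, 6 kb in all. The TSS was the annotated 5′ end of a protein-coding gene of GENCODE release M21, on chromosomes 1 to 19 of mm10. It was called closed when no peak of any library overlapped this window by at least 1 base. Of 20807 genes, 3638 were closed, which is 17.5% of all genes. A peak was found in 1 library at 2047 genes, in 2 at 2237, in 3 at 2486 and in all 4 at 10399. The word closed is used here only for the absence of a listed peak, and the members were chosen by the absence of peaks in the window, which is therefore not itself a result.

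The lines were sorted by flow cytometry from lung tumors of *RP* mice, which have the Rb1L/L and Trp53L/L alleles on a mixed C57Bl/6, Balb-c and S129 background. Adenoviral Cre given into the trachea deletes both tumor suppressors, so that every line carries both deletions. The SCLC metastasizing cells (SMC) are NCAM high and CD44 low or negative and grow in suspension, and the non-SMC cells are NCAM low and CD44 high and adhere. The SMC and non-SMC lines, 2 of each, were untreated and grown in RPMI1640 with serum, each line gave 1 library, and the labels call the lines paired, here by number. Pairs of values below are given for line 1 and then line 2 of a type. Each line grew out of sorted cells in culture, and the vector drives Cre from the CMV promoter, which is not specific to a cell type. The SMC libraries listed 91057 and 153954 peaks and the non-SMC libraries 115837 and 128710. Taken alone, the SMC libraries left 7642 (36.7%) and 6007 (28.9%) of the genes without a promoter peak, and the non-SMC libraries 7044 (33.9%) and 6960 (33.5%). The lists hold no read totals. The study gives its totals by cell type, with more reads for SMC, and not by line, so depth was not used in the comparisons here. Of 8 SMC markers, 7 and 8 had a promoter peak in the SMC lines and 5 in each non-SMC line, and the 5 non-SMC markers had one in every library except SMC line 1, where 1 did. No marker of either list was closed. Of markers of other cells, 0 to 2 of 5 leukocyte, 2 to 3 of 3 endothelial and 0 to 3 of 3 erythroid genes had a promoter peak in a library.

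ATAC-seq cuts DNA with a transposase that reaches only DNA not tightly packed, and active promoters stand out as peaks. In mammals many promoters lie in CpG islands, stretches rich in unmethylated CpG that are open in most cell types, whereas promoters poor in CpG tend to open only in the tissue that uses the gene. Odorant, pheromone and taste receptors are the textbook case of the second kind: large families born by tandem duplication, lying in clusters, and used by sensory cells of the nose, the vomeronasal organ and the tongue.

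The promoter sequences of the closed genes show the contrast of CpG content among them. Each is printed as 300 bases, 250 before the TSS and 50 from it into the gene, 5′ to 3′ on the strand of the gene, with every CpG in capitals. They were read from the RefSeq copy of GRCm38, the assembly of mm10, at the GENCODE start sites. The first pair are neighbouring olfactory receptor genes, *Olfr820* (chr10:130012371-130012670, plus strand) and *Olfr821* (chr10:130030098-130030397, plus strand), which have no CpG in these 300 bases.
Olfr820: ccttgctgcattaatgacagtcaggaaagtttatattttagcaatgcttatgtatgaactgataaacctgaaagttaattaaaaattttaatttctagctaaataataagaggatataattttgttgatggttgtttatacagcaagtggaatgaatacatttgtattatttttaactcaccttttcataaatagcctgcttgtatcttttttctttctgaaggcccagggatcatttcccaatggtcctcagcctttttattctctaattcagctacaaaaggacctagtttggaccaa
Olfr821: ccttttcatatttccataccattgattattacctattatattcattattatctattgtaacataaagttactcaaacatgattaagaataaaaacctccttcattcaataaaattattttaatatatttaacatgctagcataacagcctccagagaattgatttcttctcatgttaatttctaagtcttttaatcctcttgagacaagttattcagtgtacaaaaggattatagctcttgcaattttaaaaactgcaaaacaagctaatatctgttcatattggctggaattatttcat
The next pair come from the stretch of chromosome 7 that lay farthest from any peak, the predicted gene *Gm4175* (chr7:21761426-21761725, minus strand) with 4 CpGs and the vomeronasal receptor gene *Vmn1r132* (chr7:21613842-21614141, plus strand) with 2.
Gm4175: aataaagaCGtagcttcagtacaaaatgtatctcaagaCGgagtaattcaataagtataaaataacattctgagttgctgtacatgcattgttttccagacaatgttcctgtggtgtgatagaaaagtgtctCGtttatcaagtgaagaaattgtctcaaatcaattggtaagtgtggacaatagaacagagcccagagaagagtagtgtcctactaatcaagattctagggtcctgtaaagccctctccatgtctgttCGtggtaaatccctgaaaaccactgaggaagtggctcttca
Vmn1r132: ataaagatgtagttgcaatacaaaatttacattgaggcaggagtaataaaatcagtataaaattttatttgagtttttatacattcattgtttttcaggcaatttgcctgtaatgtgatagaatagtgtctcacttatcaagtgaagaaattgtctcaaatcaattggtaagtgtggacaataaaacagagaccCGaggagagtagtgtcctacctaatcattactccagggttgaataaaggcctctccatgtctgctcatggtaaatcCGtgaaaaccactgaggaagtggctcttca
The last 3 are the closed promoters of the high CpG class with the highest ratio of observed to expected CpGs over 1 kb, *Zdbf2* (chr1:63273015-63273314, plus strand) with 37 CpGs, *Zfp618* (chr4:62965323-62965622, plus strand) with 60 and *Rbmxl2* (chr7:107209195-107209494, plus strand) with 29.
Zdbf2: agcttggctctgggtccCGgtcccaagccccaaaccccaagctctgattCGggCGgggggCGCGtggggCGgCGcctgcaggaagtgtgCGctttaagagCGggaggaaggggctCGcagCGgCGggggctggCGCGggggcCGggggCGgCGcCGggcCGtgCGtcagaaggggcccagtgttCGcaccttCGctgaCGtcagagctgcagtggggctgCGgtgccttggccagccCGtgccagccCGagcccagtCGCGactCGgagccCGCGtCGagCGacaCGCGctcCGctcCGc
Zfp618: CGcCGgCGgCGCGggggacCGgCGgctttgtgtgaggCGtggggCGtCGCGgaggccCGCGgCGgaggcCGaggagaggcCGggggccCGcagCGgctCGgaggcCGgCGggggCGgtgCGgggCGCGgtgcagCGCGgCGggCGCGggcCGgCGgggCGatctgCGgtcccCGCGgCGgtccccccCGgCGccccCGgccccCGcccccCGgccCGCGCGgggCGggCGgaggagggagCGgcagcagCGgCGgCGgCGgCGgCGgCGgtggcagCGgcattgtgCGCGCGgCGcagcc
Rbmxl2: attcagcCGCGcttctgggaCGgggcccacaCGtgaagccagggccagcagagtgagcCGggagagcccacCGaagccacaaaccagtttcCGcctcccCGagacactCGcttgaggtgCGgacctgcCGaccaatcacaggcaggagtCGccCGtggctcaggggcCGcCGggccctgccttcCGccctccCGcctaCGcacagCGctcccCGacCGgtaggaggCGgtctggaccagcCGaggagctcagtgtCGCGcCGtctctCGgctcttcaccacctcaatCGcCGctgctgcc
Most closed promoters resembled the receptor genes. The median closed promoter had 2 CpGs in its 300 bases, against 12 for all genes and 20 for genes with a peak in all 4 libraries. No CpG at all was found in 729 closed promoters (20.04%), and in 342 of the 942 closed olfactory receptor promoters (36.3%), against 5.13% of all promoters.

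Gene families came first. Of 1514 genes of the 6 chemosensory families, 1276 were closed (84.3%), against 17.5% of all genes, and these made up 35.1% of the closed promoters. Olfactory receptors, the odorant receptors of the main nasal epithelium, were the largest family, with 942 of 1128 closed (83.5%). The pheromone receptors of the vomeronasal organ were closed at 179 of 208 type 1 genes (86.1%) and 112 of 121 type 2 genes (92.6%). Bitter taste receptors were closed at 28 of 35 genes, the trace amine-associated receptors, which sense volatile amines, at 11 of 15, and the formyl peptide receptors, some of which serve the vomeronasal organ, at 4 of 7. Genes of a family share position and sequence and are not independent of each other.

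**Figure D1:**
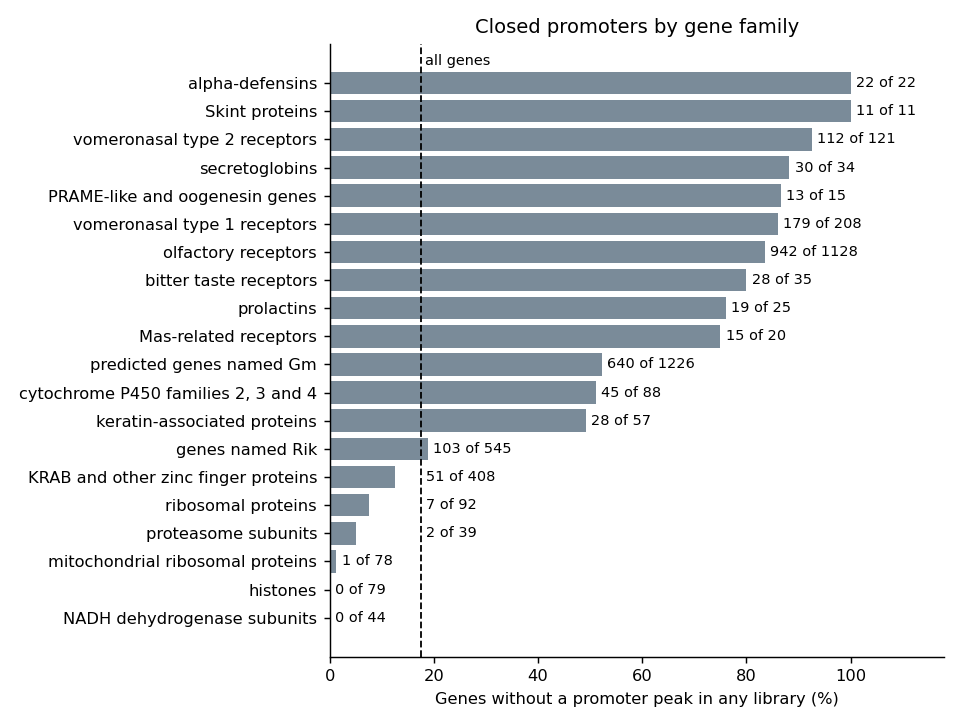
Share of protein-coding genes without a promoter peak in any of the 4 libraries (x axis, %), by gene family (y axis), with the number closed of the number in the family beside each bar. The dashed line marks the 17.5% of all genes, and the olfactory and vomeronasal receptor families lie between 83.5% (olfactory receptors) and 92.6% (vomeronasal type 2 receptors), while histones and NADH dehydrogenase subunits are at 0.

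Beyond the chemosensory families, several other families had a high closed share. All 11 *Skint* genes, immunoglobulin-like proteins of thymus and skin, and all 22 alpha-defensin genes, antimicrobial peptides of intestinal Paneth cells, were closed. Secretoglobins, small secreted proteins of airways and glands, were closed at 30 of 34 genes (88.2%), the PRAME-like and oogenesin genes of germ cells and early embryos at 13 of 15 (86.7%), the prolactins of placenta and pituitary at 19 of 25 (76.0%) and the Mas-related receptors of sensory neurons at 15 of 20. The cytochrome P450 families 2, 3 and 4, which oxidize steroids and foreign compounds, were closed at 45 of 88 genes (51.1%) and the keratin-associated proteins of the hair shaft at 28 of 57 (49.1%). Type I interferons were closed at 15 of 20 genes, UDP-glucuronosyltransferases at 14 of 22 and the natural killer cell lectin-like receptors at 17 of 26. The 408 KRAB and other zinc finger genes were closed at 12.5%, below the share of all genes, and 36 of their 51 closed members had a window under 90% unique.

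Genes named only as predicted were the second largest group after the olfactory receptors. Those with *Gm* names were closed at 640 of 1226 genes (52.2%) and those with *Rik* names at 103 of 545 (18.9%). They made up 20.4% of the closed promoters. Genes in none of the 51 families were closed at 1091 of 15774 (6.92%).

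Families that every cell uses were closed at few promoters. No promoter of 79 histone genes or of 44 NADH dehydrogenase subunits of the respiratory chain was closed. Of 92 ribosomal protein genes 7 were closed, *Rpl10-ps3*, *Rps27rt*, *Rpl9-ps1*, *Rpl10l*, *Rpl36a-ps1*, *Rpl39l* and *Rpl9-ps6*, and 4 of these carry the ps mark of a pseudogene in their symbol. Of 78 mitochondrial ribosomal protein genes *Mrpl35* was closed, and of 39 proteasome subunits *Psma6* and *Psma8* were. *Mrpl35* and *Psma6* had a peak in all 4 libraries at the TSS of another transcript, so for them the annotated 5′ end misses a start site with a peak.

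The sequence of a window bears on whether reads can be placed in it, so its uniqueness was measured. It is the percentage of 96-base stretches, sampled every 50 bases across the 6 kb, that occur once in the genome. The sources used here do not say how reads with several matching places were treated. Of 1608 genes with a window under 90% unique, 1073 were closed (66.7%), against 2565 of 19199 genes at or above it (13.4%). Among windows at or above 90%, olfactory receptors were still closed at 847 of 1021 genes (83.0%), vomeronasal type 1 receptors at 100 of 126 (79.4%), type 2 receptors at 70 of 78 (89.7%) and *Skint* genes at 11 of 11. Among the *Gm* genes the closed share was 163 of 666 (24.5%) in such windows, below the 52.2% of the whole group, and among the secretoglobins it was 10 of 14 (71.4%). In such windows bitter taste receptors were closed at 26 of 33 genes (78.8%), prolactins at 18 of 21 (85.7%), PRAME-like and oogenesin genes at 7 of 9 (77.8%), UDP-glucuronosyltransferases at 14 of 19 (73.7%) and the cytochrome P450 families 2, 3 and 4 at 30 of 70 (42.9%). Of the 22 closed alpha-defensin promoters 21 lay under 90%, so that family as a whole rests on 1 unique window. In 110 closed genes no sampled stretch was unique, against none of the genes with a peak.

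CpG content was low at most closed promoters. CpG observed/expected, the number of CpGs relative to what the C and G content would give by chance, had a median of 0.137 over the 1 kb around a closed TSS (quartiles 0.0855 and 0.234). It was 0.235 with a peak in 1 library, 0.312 in 2, 0.502 in 3 and 0.744 in all 4, and 0.569 over all genes. The median GC content was 41.7% at closed promoters, against 55.1% over all genes and 59.3% at those with a peak in all 4 libraries. The quartiles of the closed promoters and of those with a peak in all 4 libraries (0.613 and 0.850) did not overlap.

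The same was seen in classes. A promoter was called high in CpG if any 500-base window from -700 to 200 bases relative to the TSS had a CpG observed/expected above 0.75 and a GC content above 55%, low if no window was above 0.48, and intermediate otherwise. Of the closed promoters 3261 were low (89.6%), 311 intermediate and 66 high (1.81%), while 57.9% of those with a peak in all 4 libraries were high. Read the other way, 38.6% of low, 6.02% of intermediate and 0.917% of high CpG promoters were closed. Among windows at least 90% unique these shares were 32.1%, 4.23% and 0.510%, and under 90% they were 76.7%, 41.5% and 22.2%, so the order of the classes was the same in both. Many promoters poor in CpG were not closed, and 1189 promoters with a peak in all 4 libraries were low too.

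**Figure D2:**
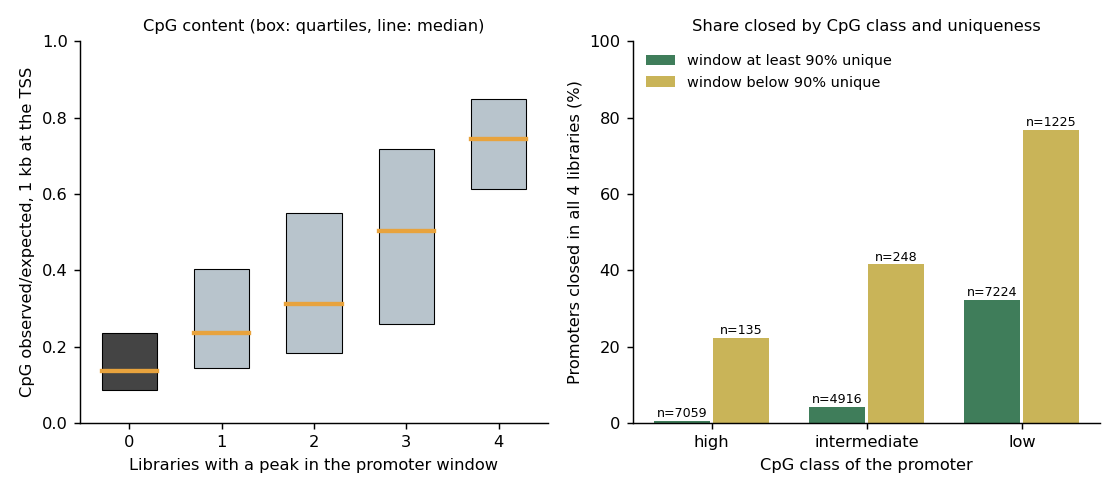
Left, CpG observed/expected over the 1 kb around the TSS (y axis) by the number of libraries with a peak in the promoter window (x axis), with boxes from the lower to the upper quartile and a line at the median, which rises from 0.137 to 0.744. Right, percentage of promoters closed in all 4 libraries (y axis) by CpG class (x axis) and by the uniqueness of the window, with the number of genes above each bar; it rises from 0.510% to 32.1% in unique windows and from 22.2% to 76.7% in the others.

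The chemosensory promoters were poorer in CpG than the other closed ones. Closed olfactory receptor promoters had a median of 0.104, type 1 vomeronasal promoters 0.0908 and type 2 promoters 0.0987, and none of the 1276 was high in CpG. The chemosensory promoters with a peak in at least 1 library were poor as well, with a median of 0.112 against 0.103 for the closed ones, and 235 of those 238 were low. The remaining 2362 closed promoters had a median of 0.174, and 84.8% of them were low.

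Among short sequence elements in the 300 bases, those that hold a CpG were found at a smaller share of closed than of all promoters. TATAAA and TAATTA were found at a larger share, CCAAT at a slightly larger one and the Olf/EBF site at nearly the same share. Each motif was counted on both strands and a match is only a match of letters. TATAAA, the core of the TATA box, was found in 27.2% of closed promoters, 12.7% of all promoters and 6.89% of those with a peak in all 4 libraries. TAATTA, a core bound by many homeodomain proteins, was found in 13.5%, 5.21% and 2.45%, and in 24.5% of closed olfactory and 21.2% of closed type 1 vomeronasal promoters. GGGCGG, the GC box, which holds a CpG, was found in 7.59%, 43.7% and 63.9%, and in 5 of the 942 closed olfactory receptor promoters. CCGGAAG, an ETS site that also holds a CpG, was found in 2.31%, 11.0% and 17.9%. CCAAT was found at 43.2%, 38.6% and 39.6%. Among closed receptor promoters its share was 45.2% for olfactory, 54.7% for type 1 and 26.8% for type 2 vomeronasal genes. The Olf/EBF site, bound by early B-cell factors and known from olfactory genes, was found in 1.10%, 1.02% and 0.914%, and in 19 closed olfactory receptor promoters (2.02%). Closed promoters are richer in A and T, and the shares were not separated from this base composition.

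Closed promoters lay next to each other. Along the chromosomes a closed gene was followed by a closed gene in 61.7% of cases, and an open gene in 8.11%. Runs of at least 5 consecutive closed genes numbered 162 and held 1938 closed genes (53.3%), and 73 of these runs had at least 10 genes. At the other end, 923 closed genes (25.4%) had an open gene on both sides. Of the closed chemosensory genes 79.2% lay in runs, against 39.2% of the other closed genes. At least 50% of the genes were chemosensory in 76 runs, and 81 runs had no chemosensory gene.

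The run with the most genes was on chromosome 7, from *Nlrp9b* to *Nlrp4e* (chr7:19988465-23304191). It held 86 closed genes over 3.32 Mb, of which 49 were named as type 1 vomeronasal receptors and 35 had *Gm* names. Families were matched by symbol, so a *Gm* gene was not counted as a receptor whatever its sequence. Of the windows of the run, 85 were under 90% unique. In the sequence of the run outside the promoter windows, both SMC libraries and that of non-SMC line 1 had 0 peaks, and non-SMC line 2 had 3. Chromosome 2 held 4 of the 10 runs with the most genes, nearly all olfactory receptors, from *Olfr1204* to *Olfr1258* (48 genes), *Olfr153* to *Olfr1162* (32), *Olfr1164* to *Olfr1202* (32) and *Olfr1093* to *Pramel7* (31). These 4 runs had 2 to 5 windows under 90% unique each. Another on chromosome 7, from *Olfr291* to *Vmn2r79* (34 genes), joined 18 olfactory and 15 type 2 vomeronasal receptors, and one on chromosome 10, from *Olfr805* to *Vmn2r87* (30 genes), joined 23 and 4. The remaining 3 were 2 runs of *Gm* genes on chromosome 14 (41 and 39 genes), in which every window was under 90% unique, and the defensin run on chromosome 8 from *Defa21* to *Defb50* (30 genes), with 27 such windows.

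Some of the 81 runs with no chemosensory gene held other tandem families. On chromosome 4 these were the major urinary proteins from *Mup7* to *Mup21* (20 genes), the *Skint* genes (11) and a run up to *Ifna4* of 17 genes, 6 of them type I interferons and 11 *Gm* genes, on chromosome 7 the secretoglobins from *Scgb2b2* to *Scgb2b21* (23), on chromosome 13 the prolactins from *Prl8a2* to *Prl7c1* (11) and on chromosome 19 the *Cyp2c* genes from *Cyp2c55* to *Cyp2c70* (14). The *Skint*, prolactin and *Cyp2c* runs had a median window uniqueness of 99.2%, 97.5% and 96.2%, whereas it was 69.7% for the secretoglobins, 27.7% for the major urinary proteins and 19.3% for the run up to *Ifna4*. These runs were chosen to be named after their values were seen. By chromosome, the closed share ran from 5.35% on chromosome 15, which had 0 runs, to 30.9% on chromosome 7 and 32.6% on chromosome 14, and chromosome 7 held 626 closed genes and 26 runs.

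Whether runs are poor in peaks beyond the windows that define them was asked of the sequence outside every promoter window. Inside the runs the SMC lines had 2.61 and 5.10 peaks per Mb and the non-SMC lines 3.27 and 7.37. In the rest of the genome the SMC lines had 31.3 and 58.8, and the non-SMC lines 42.4 and 48.5. The density inside was lower in every library, at a ratio to that outside of 0.0835 and 0.0868 in SMC and 0.0770 and 0.152 in non-SMC. With only the 113 runs whose genes had a median uniqueness of at least 90%, the ratios were 0.110, 0.114, 0.0953 and 0.213. Uniqueness was measured in the promoter windows only, and not in the sequence in which these peaks were counted. Of the 162 runs, 19 had no peak outside the windows in any library, and 43 had one in all 4. Most of the 19 had a median window uniqueness under 90%, and some had little sequence outside the windows to count. The run up to *Ifna4* had 0.0086 Mb of it and a median uniqueness of 19.3%, and the run from *Gm13698* to *Gm13691* had 0 Mb. Others had unique promoter windows, such as *Olfr794* to *Olfr800* with a median of 100%.

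The ratio of non-SMC line 2 stood above the other 3 libraries, which lay close together. The SMC ratios averaged 0.0851 ± 0.00231 (SD, n = 2) and the non-SMC ratios 0.114 ± 0.0528 (SD, n = 2). Their difference of -0.0293 did not reach the SD between lines of a type, 0.0374. SMC minus non-SMC was 0.00648 in pair 1 and -0.0650 in pair 2. Where 1 line was left out, closed promoters and runs were called anew from the remaining libraries. The difference was then -0.00625 without non-SMC line 2, -0.0182 without SMC line 2 and -0.0699 without non-SMC line 1. In the runs called from all 4 libraries, the ratio of non-SMC line 1 lay below both SMC ratios. The peaks of non-SMC line 2 inside runs were weaker than its other peaks by 1 measure: 7.17% of them had a -log10 q of at least 5, against 16.2% outside runs and the promoter windows, while in the other libraries these shares were 9.57% and 10.6%, 12.3% and 13.5%, and 31.1% and 34.3%. With only peaks of -log10 q from 5 up, the difference between SMC and non-SMC was -0.00409.

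**Figure D3:**
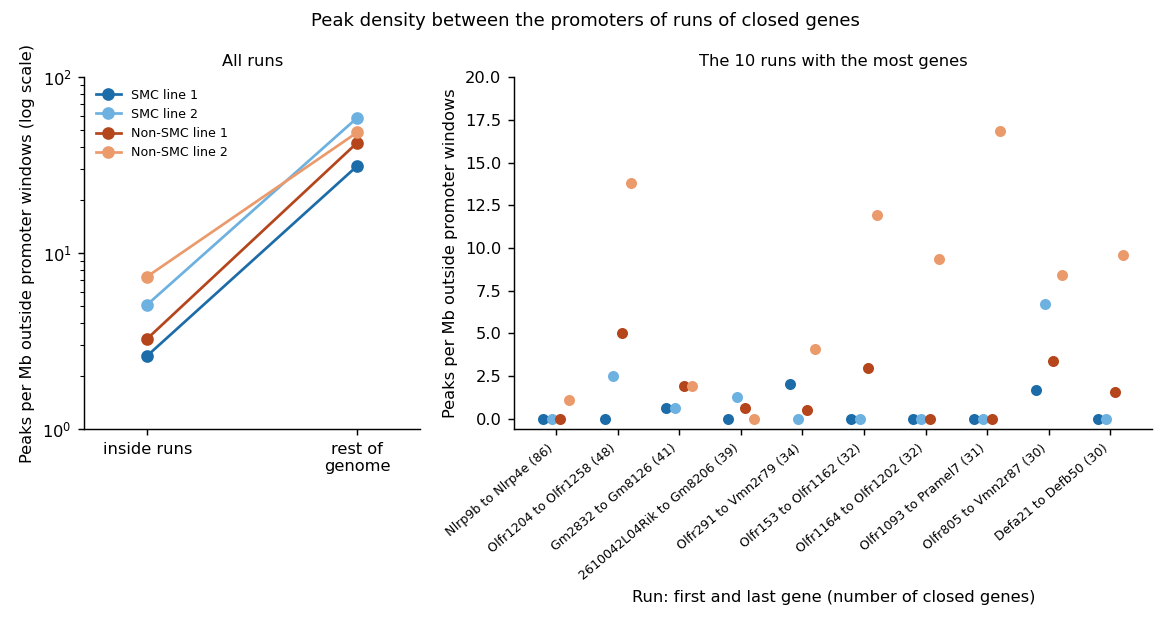
Left, peaks per Mb of sequence outside promoter windows (y axis, log scale) inside all runs of at least 5 closed genes and in the rest of the genome, 1 line per library; all 4 lines rise, from 2.61 to 7.37 inside to 31.3 to 58.8 outside. Right, the same density (y axis, linear) in each library for the 10 runs with the most closed genes (x axis), in which non-SMC line 2 reaches 16.8 peaks per Mb in the run from *Olfr1093* to *Pramel7*, where the other 3 libraries have 0.

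The distance from a closed promoter to the nearest peak varied widely, and no value for all promoters is given beside it here. The nearest peak of any library lay at a median of 13.4 kb from the TSS, with quartiles at 5.81 and 41.3 kb, and 432 closed promoters had none within 100 kb and 43 none within 1 Mb. Within a single library the median was 59.1 and 41.8 kb in the SMC lines and 47.0 and 27.3 kb in the non-SMC lines. Closed chemosensory promoters had medians of 101 and 105 kb in the SMC lines and 101 and 42.7 kb in the non-SMC lines. At windows at least 90% unique no closed promoter lay over 1 Mb from the nearest peak of any library, and the median was 9.69 kb.

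The 10 closed promoters farthest from a peak were all on chromosome 7, in windows at most 17.6% unique. They were the *Gm* genes *Gm4175*, *Gm4177*, *Gm5725* and *Gm5891*, the type 1 vomeronasal genes *Vmn1r130*, *Vmn1r131*, *Vmn1r132* and *Vmn1r135*, and the type 2 genes *Vmn2r39* and *Vmn2r40*. For *Gm4175*, the farthest, the nearest peak was 1623 and 1817 kb away in the SMC lines and 1805 and 1662 kb away in the non-SMC lines. For *Vmn2r40* the distances were 1563 to 1564 kb in all 4 libraries.

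**Figure D4:**
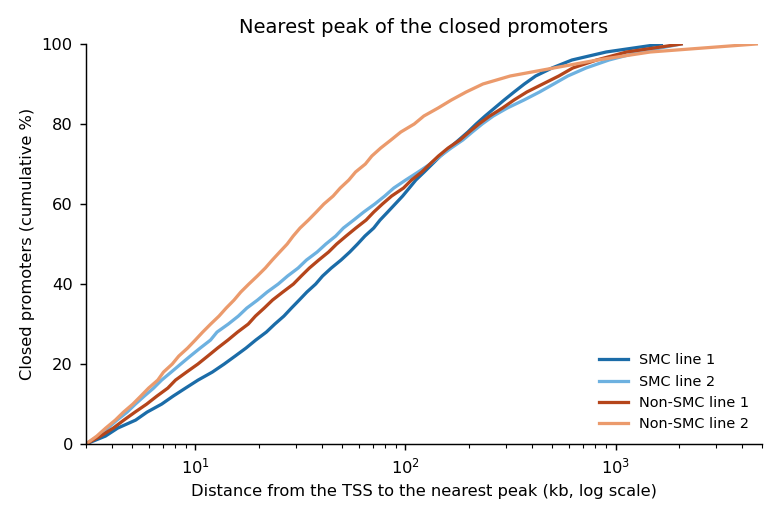
Cumulative percentage of the closed promoters (y axis) by the distance from the TSS to the nearest peak (x axis, kb, log scale), 1 line per library, starting at 3 kb, the edge of the window. The line of non-SMC line 2, with a median of 27.3 kb, lies above the others over most of the range, and that of SMC line 1, with a median of 59.1 kb, starts lowest.

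The share of closed promoters with a peak between 3 and 50 kb from the TSS was compared between the cell types. This stretch lies outside the promoter's own window but can hold windows of neighbouring closed genes, where the rule allows no peak. The share is therefore partly set by the rule, also when read beside that of all genes. For closed promoters it was 46.3% and 53.6% in the SMC lines and 51.3% and 64.6% in the non-SMC lines. Of all genes, 85.1% and 89.3% had such a peak in the SMC lines and 88.0% and 92.0% in the non-SMC lines. The SMC and non-SMC values of closed promoters overlap. The SMC share averaged 49.9% ± 5.21 (SD, n = 2) and the non-SMC share 58.0% ± 9.35 (SD, n = 2). They differed by -8.01 percentage points, beside an SD between lines of a type of 7.57, and the difference was -5.09 in pair 1 and -10.9 in pair 2. Over all genes it was -2.79 with an SD between lines of 2.86. With closed promoters called anew from the remaining libraries, the difference was -2.00 without non-SMC line 2. It was -3.96 without SMC line 1 and -14.0 without non-SMC line 1. At the closed chemosensory promoters the shares were 28.6% and 33.2% in SMC and 32.99% and 54.8% in non-SMC, so non-SMC line 2 stood apart there, and at the other closed promoters they were 55.8% and 64.7% in SMC and 61.3% and 69.9% in non-SMC. With 2 lines of each type an exact two-sided permutation test cannot go below p = 0.3333, so no test was made.

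The chemosensory promoters that did have a peak had it in few libraries. Of the 238, 172 had one in 1 library, 44 in 2, 18 in 3 and 4 in all 4. The latter were *Vmn1r4*, *Olfr1396*, *Olfr223* and the bitter receptor gene *Tas2r119*, named after their values were seen, and the TSS of *Vmn1r4* lies 0.0830 kb from that of a gene of another kind. Of the 1514, the SMC libraries had a peak at 50 (3.30%) and 80 (5.28%) and the non-SMC libraries at 81 (5.35%) and 119 (7.86%), against 63.3% to 71.1% of all genes. A peak with -log10 q from 5 up was at 3 and 9 of these promoters in SMC and 26 and 13 in non-SMC. The libraries differed in such peaks as a whole. They were 13062 of 91057 and 26312 of 153954 peaks in SMC, and 43984 of 115837 and 25103 of 128710 in non-SMC. The median distance of a chemosensory TSS to the nearest TSS of another kind of gene was 159 kb for the closed ones, 90.8 kb with a peak in 1 library, 44.8 kb in 2, 37.9 kb in 3 and 45.0 kb for the 4 genes with a peak in all 4.

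The 66 closed promoters with high CpG content were the exceptions, and they fell into a unique and a repeated group. In 36 the window was at least 90% unique, and their nearest peak lay at a median of 5.24 kb. In 30 it was less unique, with a median of 39.2 kb, and 16 of them lay in runs, against 1 of the 36. The repeated group held near copies such as *Srp54b* and *Srp54c*, of the signal recognition particle, and *Entpd4* and *Entpd4b*, nucleotide-hydrolysing enzymes of the Golgi, whose windows were 0% to 1.68% unique, and *Gm* genes of the interferon run on chromosome 4.

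The 10 with the highest CpG observed/expected all had fully unique windows. *Zdbf2*, an imprinted gene, had 0.980, and its nearest peaks lay at 10.2 and 8.06 kb in SMC and at 24.9 and 50.4 kb in non-SMC. *Zfp618*, a zinc finger gene, had 0.971, and 3 libraries had a peak at another of its start sites. *Rbmxl2*, a germ cell RNA-binding protein, lay in a run of 21 closed genes, and its nearest peaks were at 6.28 and 6.26 kb in SMC and 510 and 16.5 kb in non-SMC. The others were *Nkx2-4*, a homeobox gene, *Grik3*, a kainate receptor subunit, *Ralyl*, *Pitpnm3*, *Hfm1*, a meiotic helicase, *Sox30*, a factor of male germ cells, and *Gsg1l*, an auxiliary subunit of AMPA receptors. Of the 10, *Zfp618*, *Pitpnm3* and *Hfm1* had a peak at another annotated TSS, in 3, 4 and 1 libraries. The unique group also held the developmental genes *Otx2*, *Zic1*, *Sox17*, *Hoxd1*, *Hoxc9*, *Fgf8*, *Nr2e1* and *Rfx4* and the germ cell helicase *Ddx4*, named after their values were seen. Of these, *Otx2*, *Zic1*, *Sox17* and *Nr2e1* had a peak at another TSS in 1 library and *Rfx4* in 3, and 14 of the 36 had one in at least 1 library.

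A gene closed at its 5′ end can still have a peak elsewhere. At 490 of the 3638 genes (13.5%) the window of another annotated TSS had a peak, which leaves 3148 closed at every TSS, and 84 of the 490 were chemosensory. Of 2946 closed genes that reach past the window, 1029 (34.9%) had a peak in the rest of the gene in at least 1 library. The same share of all genes is not given here.

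Genes listed by the tissue that uses them were closed in part. The rule leaves out any gene with a peak in either cell type, so genes that these tumor cells use could hardly be closed. Of 14 neuroendocrine and 12 mesenchymal genes none was closed. Of 22 hepatocyte genes 7 were, among them *Alb*, *Fgb*, *Hpx*, *Pck1*, *G6pc* and *Serpina1a*, which encode plasma proteins and enzymes of liver metabolism. Among germ cell genes 7 of 25 were closed (*Slc25a31*, *Asz1*, *Tex101*, *Syce1*, *Piwil4*, *Tdrd9*, *Ddx4*), of spermatid genes 7 of 20 (*Spata16*, *Spaca1*, *Gapdhs*, *Izumo1*, *Acrv1*, *Tssk2*, *Pgk2*) and of oocyte genes 4 of 15 (*Padi6*, *Zar1*, *Nlrp14*, *Oosp1*). Of photoreceptor genes 4 of 13 were closed (*Sag*, *Gnat2*, *Crx*, *Pde6a*), of muscle genes 4 of 18 (*Myl1*, *Myf6*, *Myh1*, *Myh4*), of T, B and natural killer cell genes 4 of 18 (*Cd8b1*, *Cd4*, *Ncr1*, *Cd3e*) and of pancreatic acinar genes 1 of 14 (*Spink1*). Apart from the neuroendocrine and mesenchymal lists, only the acinar share, 7.14%, was below the 17.5% of all genes. The other shares in this paragraph were above it, from 22.2% (muscle, and T, B and natural killer cell) to 7 of 20 (spermatid). The lists are short, however. Those with 4 closed genes (oocyte, photoreceptor, muscle, and T, B and natural killer cell) lie near the share of all genes for lists of this size. The shares of all lists in this paragraph were far below those of the chemosensory families.

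Genes that act with the chemosensory receptors, and those of the lung and of neural development, were read against the 17.5% of all genes. Of 9 genes of odorant signal transduction on these chromosomes *Gnal*, which encodes the olfactory G protein, was closed (11.1%), and 3 libraries had a peak at another of its start sites. Of 12 alveolar and airway genes of the lung, the tissue of origin, 3 were closed: *Sftpa1*, a surfactant protein of alveolar cells, and the club cell secretoglobins *Scgb1a1* and *Scgb3a2*. Their nearest peaks lay 6.76, 4.46 and 4.63 kb away. Of 23 neural homeobox and developmental genes *Pax7* and *Otx2* were closed (8.70%), and both had a peak at another TSS in 1 library.

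The edge of the rule ran through many promoters. The nearest peak lay between 3000 and 3500 bases from the TSS at 215 closed genes. Just inside the rule were *Olfr180*, *Ccdc73*, *Gm17387*, *Krt40* and *Krtap9-1*, with the nearest peak 3002 to 3007 bases away. Just outside it were *Gm36028*, *A2ml1*, *Pramel6*, *Olfr1504* and *Olfr319*, with a peak 2990 to 2999 bases away in a single library.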

How the data were processed

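The authors mapped ATAC-seq reads of 4 libraries to mm10 with Bowtie2 2.3.4, sorted them, removed duplicates and called peaks with MACS2 2.1.1 in each library without pooling. The settings are not given in the sources used here. The deposited lists give each peak's position, fold enrichment at the summit (a ratio to the local background), -log10 p-value, -log10 q-value and a score (10 times the -log10 p), and hold no read depth. Values depend on their own library, so libraries were compared by peak positions, and the -log10 p and q served only as filters. The fold enrichment was only summarised within a list.

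Genes were the protein-coding genes of GENCODE M21 on chromosomes 1 to 19, with the window and CpG classes defined in the report. Gene families were matched by symbol, and sequence was read from GRCm38. Runs are at least 5 closed genes consecutive by TSS, and their peak density counts summits outside all promoter windows per Mb of known sequence. The members, families and gene lists were chosen with earlier results of these data known, so they are described and no test was made. Named are the 10 families with the most closed promoters, the 10 with the highest share among those of at least 10 genes, the 10 runs with the most genes, the 10 closed promoters farthest from a peak, the 10 with the highest CpG content, 5 genes on each side of the rule and the closed genes of 13 lists, except 1 that is not reported here. Runs, genes and families named outside this rule are examples chosen after their values were seen. Each line is 1 sample (2 of each type), and differences were set beside the SD between lines. Overlaps and distances were the same as those of bedtools 2.31.1 in 5000 simulated regions (0 differed), and 20 counts of repeated stretches were the same as a text search (0 differed). Alternatives tried were peaks with -log10 q from 5 up, equal numbers of top peaks (91057), each library left out, windows of 1, 2 and 10 kb, every transcript's TSS, unique windows, chromosomes X and Y, other limits for runs, CpG and flanks, and the mean within line pairs. Python 3.11.15, numpy 2.4.6, pandas 2.3.3 and matplotlib 3.10.9 were used.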

Additional observations from a re-analysis of the deposited data

Results flagged for a closer look

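The peak density inside runs of closed genes, relative to the rest of the genome, was higher in the SMC line than in the non-SMC line of pair 1, by 0.00648, and lower in pair 2, with a difference of -0.0650. It drew attention because the pairs point in opposite directions. Whether the pairs differ was not tested, and each rests on 1 SMC and 1 non-SMC library.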

How the results depend on the processing

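In the order percent of genes closed, percent of closed promoters that are chemosensory, percent of chemosensory genes closed, percent of closed promoters low and high in CpG, median CpG observed/expected and percent in runs, the main values are 17.5%, 35.1%, 84.3%, 89.6%, 1.81%, 0.137 and 53.3%. Keeping peaks with -log10 q from 5 up gave 8776 closed genes and 42.2%, 16.9%, 97.7%, 72.6%, 10.5%, 0.219 and 43.8%. A 2 kb window gave 5579 genes and 26.8%, 25.3%, 93.3%, 86.4%, 2.94%, 0.165 and 45.6%. A 1 kb window gave 6557 genes and 31.5%, 22.1%, 95.6%, 84.3%, 4.06%, 0.177 and 43.6%. Equal numbers of top peaks gave 21.3%, 30.3%, 88.5%, 87.6%, 2.69%, 0.150 and 48.8%. A 10 kb window gave 14.0% of genes closed, 39.98% chemosensory, 76.8% of chemosensory genes closed, 91.1% low in CpG and a median of 0.128, and the TSS of every transcript gave 15.1%, 37.9%, 78.7%, 90.8% and 0.131. Unique windows alone gave 13.4% of genes closed, 41.2% chemosensory, 1.404% high in CpG, a median of 0.141 and 45.0% in runs. With chromosomes X and Y, 19.2% of genes were closed, 30.5% of them chemosensory, the median was 0.147 and 55.7% lay in runs. CpG classes from a single 1 kb window put 93.6% low and 0.907% high, and 250 bases on each side of the TSS gave a median of 0.142. Runs of at least 3 genes held 63.96% and of at least 10 genes 38.4% of closed promoters.

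Leaving out 1 library gave 3944 to 4450 closed genes, 18.96% to 21.4% of genes closed, 29.6% to 33.2% chemosensory, 86.4% to 88.5% of chemosensory genes closed, 86.6% to 88.5% low and 2.35% to 2.97% high in CpG, a median of 0.142 to 0.152 and 48.7% to 52.8% in runs. With closed promoters and runs called anew each time, the difference between SMC and non-SMC ranged from -0.0699 to -0.00625 for the density in runs. For flanking peaks it ranged from -14.0 to -2.00 percentage points. For the density it was -0.00409 with -log10 q from 5 up, -0.0157 with equal numbers of top peaks, -0.0465 and -0.0339 with runs of at least 3 and 10 genes, and -0.0426 with runs of unique windows, chosen after seeing the data. For flanking peaks it was -13.1 and -4.77 with these peak filters, -10.2 in unique windows and -3.52 at 3 to 10 kb. No paired analysis was possible because the results come from no test, so the pairs are given as values, and their mean equals the main difference. The absence of a peak depends on the depth of each library, which the lists do not give, so closed means not detectable in these lists.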
